A study of Mus musculus with 15 samples.

Results

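The 9 genes described here, *Ikzf1*, *Ikzf2*, *Ikzf3*, *Ikzf4*, *Tbx21*, *Prkcq*, *Rasgrp1*, *Cd69* and *Cd207*, are best known from lymphocytes or, for *Cd207*, from Langerhans cells, and were followed here in macrophages. They are 9 of the 51763 genes in the RNA-Seq count table and were taken from a fixed list. *Ikzf4*, *Tbx21*, *Prkcq*, *Rasgrp1* and *Cd69* were on that list because their counts separate the stimulations, so their values are described without a test. The other 4 genes were not picked on that ground, and 3 of them, *Ikzf1*, *Ikzf2* and *Cd207*, had enough reads to be tested. All 9 genes were still listed with earlier results of these data known. The tests of these 3 genes are therefore descriptive and not independent support. The shared name of the group does not hold for every gene: *Ikzf1* was already expressed in unstimulated macrophages, and *Ikzf3* stayed near 0 reads in all groups.

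Bone marrow-derived macrophages (BMDMs) were grown with M-CSF from wild-type female C57BL/6NTac mice between 8 and 10 weeks old, and the cells of 5 mice were pooled before seeding. The pooled BMDMs were stimulated for 24 h, with 3 samples in each of 5 groups. Control cells received PBS. HMGB1, a nuclear protein that acts as an alarmin once released, was given at 5 µg/mL in its fully reduced form (frHMGB1) or in the form with a disulfide bond (dsHMGB1). The other groups received the lipopolysaccharide LPS-EK (LPS, 1 µg/mL), alone or together with 20 ng/mL IFNγ (LPS/IFNγ). For LPS/IFNγ, the treatment field gives 1 µg/mL LPS and the protocol text 100 ng/mL, so LPS and LPS/IFNγ may differ in LPS dose as well as in IFNγ. The samples are technical replicates of one cell pool, so the errors and p-values describe variation between wells and libraries and not between mice.

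Ikaros family proteins, encoded by *Ikzf1* (Ikaros), *Ikzf2* (Helios), *Ikzf3* (Aiolos) and *Ikzf4* (Eos), are zinc finger transcription factors that bind DNA as dimers, recruit chromatin remodelling complexes and direct lymphocyte development. *Tbx21* encodes T-bet, the T-box factor of type 1 helper T cells and NK cells, which IFNγ is known to induce. *Prkcq* (protein kinase C theta) and *Rasgrp1* (a Ras activator that binds diacylglycerol) relay antigen receptor signals in T cells. *Cd69* encodes a C-type lectin that appears early on activated lymphocytes and holds back the sphingosine-1-phosphate (S1P) receptor S1PR1, and *Cd207* encodes Langerin, the lectin of Langerhans cells.

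Total counts per library lay between 40934540 and 80925478, and 16919 genes passed the filter on low counts, 8 of the 9 genes among them. PBS replicate 3 stood apart, with Pearson correlations across genes of 0.934 and 0.939 with the other PBS libraries, against 0.987 to 0.993 for the 13 other pairs of replicates. Values without it are also given beside several results. The dsHMGB1 libraries also scattered more than counting error, with a chi-square per degree of freedom of 22.9 to 86.6 between replicates. It was 692 and 763 for the pairs with PBS replicate 3, and 4.31 to 10.1 for the remaining pairs. The 10 macrophage markers, none of them at 0 in any group, summed to 22740 to 27074 CPM (counts scaled to the library total) in PBS, 27944 to 28249 in frHMGB1, 20637 to 22353 in dsHMGB1, 17062 to 17819.5 in LPS and 14407 to 14804 in LPS/IFNγ. The sum was thus lowest in LPS/IFNγ, where most of the 9 genes were highest, and of the 10 markers 5 rose and 3 fell there against PBS. The part of this shift in the results was not tested. Of 22 T cell markers, *Cd3d*, *Cd3e*, *Cd3g*, *Trbc1*, *Cd8a* and *Bcl11b* had 0 reads in all 15 libraries. Of 10 NK cell markers, *Ncr1*, *Klre1*, *Nkg7*, *Gzma* and *Prf1* had 0 reads in all of them. Other markers of these lists had many reads. Over all libraries, *Cd28* had 56838, *Lck* 44873, *Cd4* 19160 and *Lat* 9385 among the T cell markers, and *Klrk1* had 3344 among the NK cell markers.

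Promoters of 5 of the 9 genes were found in the RefSeq promoter table (GRCm38.p6). The 250 bases before the start site are shown for *Tbx21*, *Prkcq* and *Cd207*, whose reads were highest in LPS/IFNγ, and for *Rasgrp1*, whose reads were fewer in LPS/IFNγ than in LPS, so that the letters of genes with opposite patterns can be compared. The RefSeq start sites of *Prkcq* and *Rasgrp1* lie downstream of the gene starts used for positions here, chr2:11172108 and chr2:117343001. The *Prkcq* stretch thus lies wholly inside the gene so placed, and the *Rasgrp1* stretch lies inside it in part. Each stretch is written 5′ to 3′ in the direction of the gene, with a motif match in capitals.
Tbx21 (chr11:97115332-97115581, minus strand): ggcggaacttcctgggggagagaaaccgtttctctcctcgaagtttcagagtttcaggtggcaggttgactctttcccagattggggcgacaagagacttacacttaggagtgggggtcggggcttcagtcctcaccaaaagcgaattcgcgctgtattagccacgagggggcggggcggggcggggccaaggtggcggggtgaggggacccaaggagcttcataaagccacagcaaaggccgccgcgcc
Prkcq (chr2:11172132-11172381, plus strand): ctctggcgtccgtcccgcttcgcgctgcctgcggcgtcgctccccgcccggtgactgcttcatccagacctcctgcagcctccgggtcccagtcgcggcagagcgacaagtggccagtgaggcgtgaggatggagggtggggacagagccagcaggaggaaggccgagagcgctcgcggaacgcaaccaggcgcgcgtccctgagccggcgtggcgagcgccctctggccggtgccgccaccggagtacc
Cd207 (chr6:83677858-83678107, minus strand): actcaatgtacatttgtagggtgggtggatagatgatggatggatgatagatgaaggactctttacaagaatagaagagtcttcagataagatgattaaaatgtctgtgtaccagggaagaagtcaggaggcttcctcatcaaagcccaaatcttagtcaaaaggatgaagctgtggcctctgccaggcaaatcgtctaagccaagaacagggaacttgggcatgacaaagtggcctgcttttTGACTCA
Rasgrp1 (chr2:117342878-117343127, minus strand): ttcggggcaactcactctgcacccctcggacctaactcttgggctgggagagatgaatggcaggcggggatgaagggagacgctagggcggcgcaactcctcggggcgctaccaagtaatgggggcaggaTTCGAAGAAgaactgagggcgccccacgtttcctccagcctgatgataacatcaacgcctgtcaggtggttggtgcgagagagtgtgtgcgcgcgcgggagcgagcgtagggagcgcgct

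A window of 300 bases, which also covers the 50 bases after the start site, was searched on both strands for 5 motifs. These were the IFNγ-activated site GAS (TTCNNNGAA), the interferon element ISRE (GAAA, any 2 bases, GAAA), the NF-kB consensus, the AP-1 element (TGANTCA) and a T-box element (AGGTGTGA). None of them occurred in the windows of *Tbx21* and *Prkcq*. The *Cd207* window held an AP-1 match, TGACTCA, that began 7 bases before the start site, and the *Rasgrp1* window held a GAS match, TTCGAAGAA, that began 120 bases before it. *Ikzf1* has 2 start sites in the table, and the window of one held a GAS match, TTCTCTGAA, at 19 bases after the start. Of 32851 promoters of this length, 8.30% held GAS, 3.44% ISRE, 4.51% the NF-kB consensus, 7.81% AP-1 and 1.28% the T-box element. The GC content of the windows was 43.3% for *Cd207*, 62.0% for *Tbx21*, 63.7% for *Rasgrp1* and 73.0% for *Prkcq*. A match is a description of letters and not a bound site.

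The levels fell into several patterns. *Cd69* and *Ikzf1* were abundant in dsHMGB1, LPS and LPS/IFNγ, the 3 pro-inflammatory groups. *Rasgrp1* was high in dsHMGB1 and LPS and far lower in LPS/IFNγ, and *Tbx21*, *Prkcq*, *Ikzf4*, *Ikzf2* and *Cd207* were highest in LPS/IFNγ. In frHMGB1-stimulated BMDMs, the libraries overlapped those of PBS for each of the 9 genes. All libraries lay above all PBS libraries in normalized counts for 4 of the 9 genes after dsHMGB1, 5 after LPS and 8 after LPS/IFNγ, where 26.2%, 29.7% and 33.3% of all tested genes did. For 6 of the 9, all LPS/IFNγ libraries lay above all LPS libraries, against 31.4% of all tested genes. Since 5 of the genes were picked on these contrasts, nothing is read from these counts. In bulk samples, more cells that express a gene and more RNA per cell cannot be told apart.

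**Figure D1:**
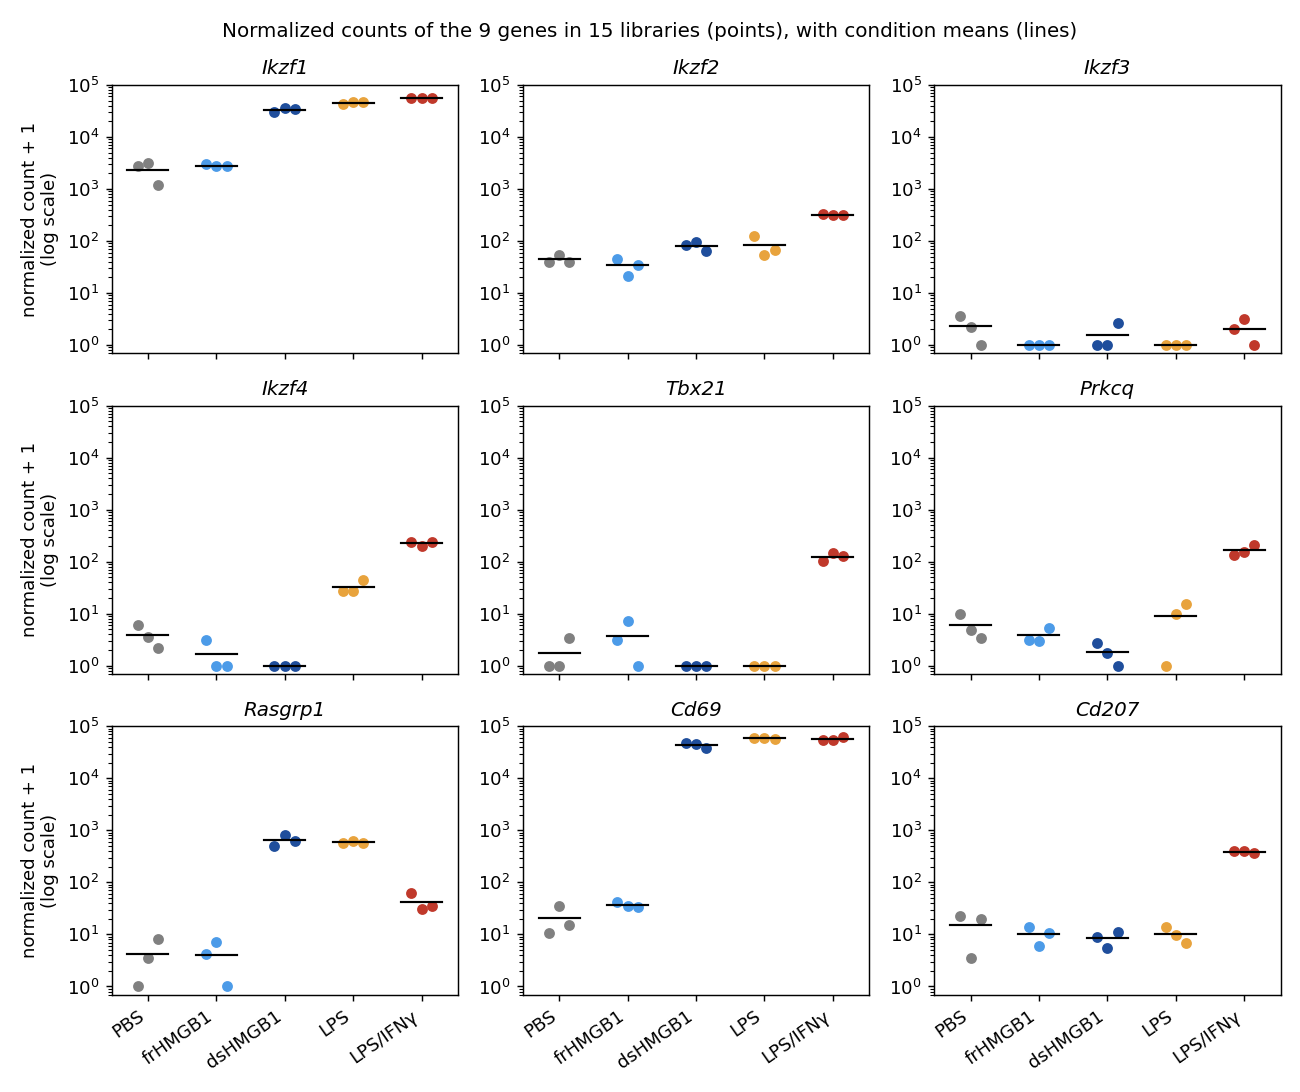
Normalized count + 1 on a log axis for each of the 9 genes, with 1 point per library, a line at the mean of each condition and 3 libraries per condition. *Tbx21* had 97, 136 and 138 reads in the LPS/IFNγ libraries and 0 in all dsHMGB1 and LPS libraries, while the lowest *Cd69* library of the pro-inflammatory groups was at 38755 normalized counts.

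The levels were compared between genes per length, as RPKM (reads per kilobase of exon, scaled to the library total). *Ikzf1* was at 133 ± 0.155 RPKM in LPS/IFNγ (mean ± SD, n = 3), and *Cd69* at 124 ± 5.40 in LPS. *Cd207* reached 3.49 ± 0.186 RPKM in LPS/IFNγ, and *Rasgrp1* reached 2.00 ± 0.499 in dsHMGB1. The LPS/IFNγ means of *Tbx21*, *Ikzf4*, *Ikzf2* and *Prkcq* were 0.681, 0.512, 0.379 and 0.316 RPKM, each the highest of that gene. These 4 genes stayed below *Rasgrp1* and *Cd207* at their highest.

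**Figure D2:**
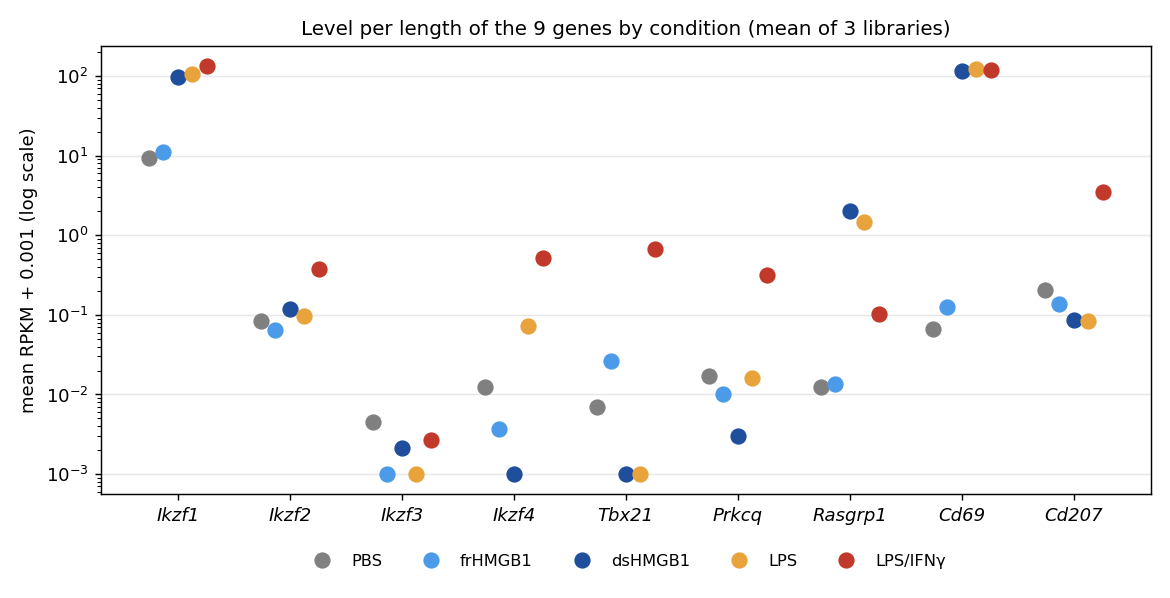
Mean RPKM + 0.001 on a log axis for the 9 genes, with 1 point per condition (mean of 3 libraries). *Ikzf1* and *Cd69* lie between 98.9 and 133 RPKM in the pro-inflammatory groups, and *Tbx21*, *Ikzf4*, *Ikzf2* and *Prkcq* reach at most 0.681 RPKM.

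*Ikzf1* (chr11:11685003-11772926, plus strand, GRCm38 as for all gene positions given here) had raw counts of 4343, 4897 and 1012 in PBS and 2765, 2704 and 2516 in frHMGB1. The dsHMGB1 libraries held 33408, 49482 and 40801 reads, the LPS libraries 33356, 31167 and 31555, and the LPS/IFNγ libraries 52639, 53271 and 62046. Every pro-inflammatory library was above every PBS and frHMGB1 library.

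Mean normalized counts of *Ikzf1* were 2361 ± 1027 for PBS and 2811 ± 128 for frHMGB1 (SD, n = 3). For the pro-inflammatory stimulations they were 33441 ± 3373 (dsHMGB1), 45366 ± 1948 (LPS) and 56197 ± 456 (LPS/IFNγ). *Ikzf1* rose over PBS in dsHMGB1 by a log2 fold change of 3.82 (SE 0.26, adjusted p = 1.33e-07 in edgeR's quasi-likelihood test). The rise was 4.26 (SE 0.26, edgeR adjusted p = 3.55e-08) in LPS and 4.57 (SE 0.26, edgeR adjusted p = 1.76e-08) in LPS/IFNγ. The frHMGB1 difference of 0.25 (SE 0.26) did not pass the test (edgeR adjusted p = 0.693), and without PBS replicate 3 the edgeR estimate was -0.0748. That library had the lowest *Ikzf1* level of all 15, at 1186 normalized counts against 2808 and 3088 in the other PBS libraries.

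Between the pro-inflammatory groups, *Ikzf1* was lowest in dsHMGB1 and highest in LPS/IFNγ, with no overlap of libraries in normalized counts. All libraries of dsHMGB1 lay below those of LPS for 26.5% of tested genes and below those of LPS/IFNγ for 30.5%. The test called dsHMGB1 lower than LPS/IFNγ (log2 fold change -0.75, SE 0.26, edgeR adjusted p = 0.0447). It did not separate dsHMGB1 from LPS (-0.44, edgeR adjusted p = 0.321) or LPS/IFNγ from LPS (0.31, edgeR adjusted p = 0.382). Without PBS replicate 3, which enters the shared estimate of spread, the edgeR adjusted p of these 3 comparisons was 4.48e-08, 4.46e-05 and 0.00109. The call against LPS/IFNγ was lost when any 1 library of the other 4 groups was left out (edgeR adjusted p up to 0.154, without dsHMGB1 replicate 1). In CPM, which takes no account of library composition, *Ikzf1* in dsHMGB1 (507 to 619) overlapped LPS (594 to 628).

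*Ikzf2* (chr1:69531214-69687245, minus strand) was low in all groups and highest in LPS/IFNγ. PBS libraries had 60, 84 and 33 reads and frHMGB1 libraries 42, 20 and 31. There were 94, 131 and 74 reads in dsHMGB1, 95, 36 and 46 in LPS, and 314, 302 and 344 in LPS/IFNγ. The LPS/IFNγ libraries lay above all others, and the dsHMGB1 and LPS libraries overlapped each other.

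*Ikzf2* rose in LPS/IFNγ over PBS by 2.88 on the log2 scale (SE 0.31, edgeR adjusted p = 4.83e-06) and over LPS by 1.97 (SE 0.31, edgeR adjusted p = 0.000389). Against LPS/IFNγ, it was lower in dsHMGB1, with a log2 fold change of -1.99 (SE 0.30, edgeR adjusted p = 0.000263). The rises over PBS were smaller in dsHMGB1 (0.88, SE 0.32, edgeR adjusted p = 0.0383) and LPS (0.90, SE 0.33, edgeR adjusted p = 0.0379). In normalized counts, the dsHMGB1 libraries (62.2 to 96.1) and the LPS libraries (53.8 to 123) were above PBS (38.7 to 53.0), and in CPM both overlapped it.

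Both of these smaller *Ikzf2* calls depended on single libraries. Without LPS replicate 1, the library with 95 reads, the LPS difference was 0.44 (edgeR adjusted p = 0.242). Without PBS replicate 1, neither LPS (0.77, edgeR adjusted p = 0.0950) nor dsHMGB1 (0.80, edgeR adjusted p = 0.0927) was called. The dsHMGB1 call was also lost without dsHMGB1 replicate 1 or 2 (edgeR adjusted p = 0.0810 and 0.133) and without any 1 of the LPS/IFNγ libraries (0.0516, 0.0518 and 0.0517). The difference between dsHMGB1 and LPS was -0.02 (SE 0.32, edgeR adjusted p = 0.961), and that between frHMGB1 and PBS was -0.41 (SE 0.34, edgeR adjusted p = 0.611).

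*Ikzf3* (chr11:98464902-98546031, minus strand), the Aiolos gene, had 11 reads in the 15 libraries together. They were 4, 2 and 0 in PBS, 0, 0 and 2 in dsHMGB1, and 1, 2 and 0 in LPS/IFNγ. All frHMGB1 and LPS libraries had 0 reads, which allows up to 0.0239 and 0.0192 CPM over the libraries of each group. A difference between groups was not detectable at this depth.

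*Ikzf4* (chr10:128630843-128645991, minus strand), the Eos gene, had 20, 18 and 29 reads in LPS and 220, 192 and 262 in LPS/IFNγ, and 0 in each of the 3 dsHMGB1 libraries. PBS libraries held 8, 4 and 1 reads, and frHMGB1 libraries 2, 0 and 0. The LPS libraries, with fewer reads in total than those of dsHMGB1, each held at least 18. *Ikzf4* is thus the one gene of the 9 with reads in every LPS and PBS library and none in dsHMGB1.

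Pooled over libraries and scaled by size factors, *Ikzf4* was 7.15-fold higher in LPS/IFNγ than in LPS (95% interval 5.56 to 9.33, counting error only). Against dsHMGB1, with 0 reads set to the limit of 3 counts over the group, it was at least 38.7-fold higher in LPS and at least 277-fold higher in LPS/IFNγ. Over PBS, the ratio was 9.68 (5.29 to 19.1) in LPS and 69.2 (40.2 to 131) in LPS/IFNγ. These values belong to the pattern for which *Ikzf4* was picked.

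The partners through which Ikaros proteins act were listed together with *Ikzf5* and *Crbn* as 16 genes, all of them tested. Against PBS, 5 rose and 1 fell in dsHMGB1, 8 rose and 2 fell in LPS, and 8 rose and 5 fell in LPS/IFNγ. Over all tested genes, 47.4% were called for dsHMGB1, 62.9% for LPS and 60.3% for LPS/IFNγ, and of *Ikzf1*, *Ikzf2* and *Cd207* 2, 2 and 3 were called. The median log2 fold change of the list was 0.15, 0.43 and 0.34 in the same order, against -0.10, -0.21 and -0.12 over all tested genes. Without PBS replicate 3, 8 rose and 2 fell in dsHMGB1 and 9 rose and 4 fell in LPS. Calls over all tested genes also increased without that library. They went from 3936 higher and 4092 lower to 5170 and 5034 in dsHMGB1, and from 4515 and 6121 to 5698 and 6640 in LPS. In LPS/IFNγ they went from 4914 and 5284 to 5769 and 5965. All list counts without PBS replicate 3 stand against this background.

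*Ikzf5* (Pegasus), the remaining family member, rose in LPS/IFNγ by 2.16 (SE 0.50, edgeR adjusted p = 0.00150) and was at 0.09 and 0.56 in dsHMGB1 and LPS, where it did not pass the test. *Hdac1*, a histone deacetylase of the complexes that Ikaros recruits, rose by 1.17, 1.95 and 1.50 in dsHMGB1, LPS and LPS/IFNγ. It was also the 1 gene of all the pathway lists called in frHMGB1 (0.42, SE 0.08, edgeR adjusted p = 0.00580), where 7.00% of all tested genes were called and 0 of *Ikzf1*, *Ikzf2* and *Cd207* (0 at an unadjusted p under 0.05 and 0 with DESeq2). *Chd3*, a remodelling ATPase of the NuRD complex, fell, with log2 fold changes of -0.80, -1.04 and -1.04, as did *Mbd3*, a NuRD subunit, in LPS (-0.78) and LPS/IFNγ (-1.22). *Crbn*, which encodes the ubiquitin ligase receptor through which thalidomide analogues degrade human Ikaros and Aiolos, rose by 0.60, 1.06 and 1.00.

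*Tbx21* (chr11:97098071-97115331, minus strand) had reads in LPS/IFNγ and almost nowhere else. Its LPS/IFNγ libraries held 97, 136 and 138 reads, and each of the 3 dsHMGB1 and 3 LPS libraries held 0. PBS libraries had 0, 0 and 2 reads and frHMGB1 libraries 2, 6 and 0, and the 2 groups overlapped. The 0 reads allow up to 0.0139 CPM in dsHMGB1 and 0.0192 in LPS, against a mean of 1.69 CPM in LPS/IFNγ.

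*Tbx21* was at least 87.9-fold higher in LPS/IFNγ than in LPS and at least 152-fold higher than in dsHMGB1. Over PBS, with 2 reads that both came from PBS replicate 3, the ratio was 248 (95% interval 68.0 to 2051, counting error only). Without that library, with PBS at the limit of 3 counts, it was at least 129.7.

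The pathways that induce T-bet run through the receptors of IFNγ, IL-12, IL-27 and IL-18. Of 12 genes, 11 were tested, and 8 rose and 0 fell in dsHMGB1, 7 rose and 0 fell in LPS, and 8 rose and 1 fell in LPS/IFNγ. When PBS replicate 3 was left out, 7 rose and 0 fell in dsHMGB1, 9 rose and 0 fell in LPS, and 8 rose and 3 fell in LPS/IFNγ. *Jak2*, a kinase of the IFNγ receptor, rose by 4.03, 4.98 and 5.04 in dsHMGB1, LPS and LPS/IFNγ. *Tbx21* had 0 reads in the dsHMGB1 and LPS libraries, and a link of *Jak2* to *Tbx21* was not tested. *Il18rap*, a chain of the IL-18 receptor, rose by 2.44, 3.41 and 7.83, and by 4.42 in LPS/IFNγ over LPS (SE 0.51, edgeR adjusted p = 3.36e-05), while *Il18r1*, the other chain, had at most 4 reads in any group. *Il12rb1* and *Il12rb2*, the chains of the IL-12 receptor, rose in LPS/IFNγ by 3.72 (edgeR adjusted p = 1.06e-07) and 2.59 (edgeR adjusted p = 0.00769).

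Of 12 partners and targets of T-bet, 9 were tested, and 3 rose and 2 fell in dsHMGB1, 3 rose and 2 fell in LPS, and 6 rose and 1 fell in LPS/IFNγ. Without PBS replicate 3, 5 rose and 4 fell in dsHMGB1 and 5 rose and 2 fell in LPS. *Ifng*, *Gzmb* and *Prf1*, which T-bet activates in lymphocytes, had 7, 10 and 0 reads over the 3 LPS/IFNγ libraries. *Runx3*, a T-bet partner, rose in LPS/IFNγ by 0.82 (SE 0.17, edgeR adjusted p = 0.00229). The chemokine genes *Ccl5*, *Ccl4* and *Ccl3* rose in each pro-inflammatory group, *Ccl5* by 9.19, 10.61 and 10.11. The part of T-bet in these rises was not tested. *Ccl3* and *Ccl4* were lower in LPS/IFNγ than in LPS, with log2 fold changes of -2.74 and -2.98.

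In the rest of the T-box family, 6 of 14 genes were tested. *Tbx3* rose by 2.97, 2.97 and 3.15 in dsHMGB1, LPS and LPS/IFNγ, *Tbx15* rose by 0.54, 1.02 and 1.76, and *Tbx6* fell, with log2 fold changes of -4.17, -3.47 and -2.96. *Eomes*, the closest relative of T-bet in lymphocytes, had 4 reads in dsHMGB1, 4 in LPS and 0 in the other groups.

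*Prkcq* (chr2:11172108-11301222, plus strand) had 126, 145 and 226 reads in LPS/IFNγ. PBS libraries held 14, 6 and 2 and frHMGB1 libraries 2, 2 and 4. There were 2, 1 and 0 reads in dsHMGB1 and 0, 6 and 10 in LPS. Only the LPS/IFNγ libraries held more than 14 reads. Scaled by size factors, LPS/IFNγ was 22.1-fold above LPS (95% interval 13.5 to 38.9, counting error only) and 30.1-fold above PBS (19.7 to 48.5). The ratio of LPS to PBS was 1.37 (0.670 to 2.72), and their libraries overlapped.

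Protein kinase C enzymes fall into classes that need calcium and diacylglycerol, diacylglycerol alone or neither. *Prkch* (protein kinase C eta) fell over PBS, with log2 fold changes of -1.13, -3.12 and -2.48 in dsHMGB1, LPS and LPS/IFNγ (SE 0.10, 0.10 and 0.10, edgeR adjusted p = 1.24e-06, 5.12e-11 and 3.61e-10). Per length, *Prkch* was at 11.8 RPKM in PBS and 1.31 in LPS/IFNγ, beside 0.316 RPKM of *Prkcq* in LPS/IFNγ. *Prkcd*, at 83.9 RPKM in PBS, rose by 1.09, 1.01 and 0.53. *Prkce* rose by 0.78 in LPS and 1.38 in LPS/IFNγ. Of the 8 other isoforms, 1 rose and 1 fell in dsHMGB1, 2 rose and 2 fell in LPS, and 2 rose and 3 fell in LPS/IFNγ. Without PBS replicate 3, 1 rose and 4 fell, 2 rose and 5 fell, and 2 rose and 5 fell.

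The CARD-BCL10-MALT1 complex carries the signal from protein kinase C to NF-kB. Of 12 genes of this relay, 11 were tested, and in each pro-inflammatory group 6 rose and 3 fell. With PBS replicate 3 left out, 7 rose and 3 fell in dsHMGB1, 6 rose and 4 fell in LPS, and 6 rose and 3 fell in LPS/IFNγ. *Malt1*, the protease of the complex, rose by 3.86, 4.64 and 4.65, *Tab2*, an adaptor of the kinase TAK1, by 1.81, 2.46 and 2.92, and *Bcl10* by 1.06, 1.41 and 1.58. Among the genes that fell were CARD scaffolds, with log2 fold changes of -2.21, -3.84 and -2.99 for *Card14* and -0.95, -1.38 and -1.78 for *Card9*, the myeloid scaffold.

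*Rasgrp1* (chr2:117279993-117343001, minus strand) differed between LPS and LPS/IFNγ in the direction opposite to *Prkcq*. Its reads numbered 569, 1133 and 751 in dsHMGB1, 450, 427 and 397 in LPS, and 59, 28 and 37 in LPS/IFNγ. PBS libraries held 0, 4 and 6 and frHMGB1 libraries 3, 6 and 0. In normalized counts, dsHMGB1 (506 to 831) and LPS (582 to 638) overlapped, and every library of both lay above LPS/IFNγ (29.5 to 62.6).

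*Rasgrp1* was 16.1-fold higher in dsHMGB1 than in LPS/IFNγ (95% interval 13.4 to 19.4, counting error only) and 14.5-fold higher in LPS than in LPS/IFNγ. Over PBS, with 10 reads, the ratio was 266 (144 to 555) for dsHMGB1, 239 (129.7 to 500.1) for LPS and 16.5 (8.70 to 35.4) for LPS/IFNγ. Without PBS replicate 3, which held 6 of the 10 reads, these ratios were 522, 470 and 32.5.

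*Rasgrp3*, a close relative of *Rasgrp1* that was the more abundant gene in PBS, fell with log2 fold changes of -4.49, -5.52 and -5.19 in dsHMGB1, LPS and LPS/IFNγ (SE 0.32, 0.35 and 0.33, edgeR adjusted p = 1.58e-07, 2.67e-08 and 3.33e-08). Per length, *Rasgrp3* was at 7.00 RPKM in PBS, 0.235 in dsHMGB1 and 0.0912 in LPS, beside 0.0114, 2.00 and 1.46 RPKM of *Rasgrp1*. In LPS/IFNγ, *Rasgrp3* was at 0.115 RPKM and *Rasgrp1* at 0.102. The more abundant RasGRP gene thus changed from *Rasgrp3* in PBS to *Rasgrp1* in dsHMGB1 and LPS. *Rasgrp2* fell as well (-1.34, -1.29 and -1.95), and *Rasgrp4* fell in LPS (-1.12) and LPS/IFNγ (-0.85), with -0.78 in dsHMGB1 not passing the test.

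**Figure D3:**
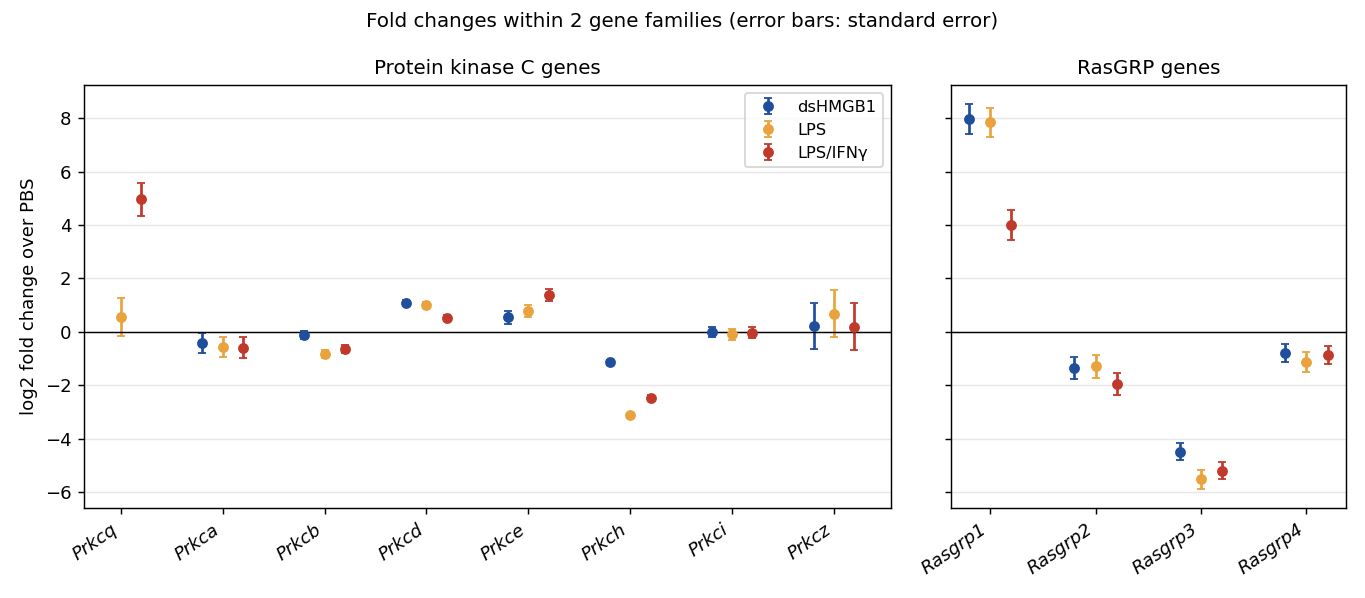
Log2 fold change over PBS with its standard error (DESeq2) for protein kinase C genes and RasGRP genes in dsHMGB1, LPS and LPS/IFNγ, 3 libraries each. *Rasgrp1* lies above 0 in all 3 groups where *Rasgrp3* lies at -4.49, -5.52 and -5.19, and *Prkcq* lies above 0 in LPS/IFNγ where *Prkch* is at -2.48. *Prkcq* in dsHMGB1, with 3 reads, is not drawn.

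Of 19 genes of Ras exchange and diacylglycerol supply, all tested, 5 rose and 6 fell in dsHMGB1, 4 rose and 9 fell in LPS, and 7 rose and 10 fell in LPS/IFNγ. With PBS replicate 3 left out, 5 rose and 8 fell in dsHMGB1, 5 rose and 10 fell in LPS, and 6 rose and 10 fell in LPS/IFNγ. *Dgka* and *Dgkz* encode diacylglycerol kinases, which remove the lipid that activates RasGRP and most protein kinase C enzymes. *Dgka* rose by 1.51 in LPS and 3.78 (SE 0.20, edgeR adjusted p = 5.82e-09) in LPS/IFNγ, and was at -0.17 in dsHMGB1 (edgeR adjusted p = 0.467). *Dgkz* fell in all 3 groups (-1.63, -1.86 and -2.01). *Rasa2*, a GTPase-activating protein that switches Ras off, rose by 1.66, 2.89 and 2.84. *Rasgrf1*, another Ras activator, had 77 reads in dsHMGB1 and 1 in PBS, a ratio of 83.5 (14.5 to 3339.6).

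*Cd69* (chr6:129267325-129275436, minus strand) had the largest ratios over PBS of the 9 genes. PBS libraries had 15, 54 and 12 reads and frHMGB1 libraries 38, 33 and 31. There were 53986, 63044 and 46103 reads in dsHMGB1, 46784, 40781 and 38906 in LPS, and 52229, 52498 and 67311 in LPS/IFNγ. The ratio over PBS was 2184 in dsHMGB1 (95% interval 1757 to 2749.7, counting error only), 2932 (2359 to 3692) in LPS and 2834 (2280 to 3569) in LPS/IFNγ.

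Mean normalized counts of *Cd69* were 44346 ± 4923 for dsHMGB1, 59544 ± 2037 for LPS and 57385 ± 3580.5 for LPS/IFNγ (SD, n = 3). All dsHMGB1 libraries lay below those of the other pro-inflammatory groups on this scale, and LPS and LPS/IFNγ overlapped. In CPM, dsHMGB1 (665 to 819) overlapped both LPS (767 to 834) and LPS/IFNγ (757 to 832), so its place below them depended on the scaling. Unlike *Tbx21*, *Prkcq*, *Ikzf4*, *Ikzf2* and *Cd207*, *Cd69* was at a like level per length in the 3 groups, 116, 124 and 120.4 RPKM.

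The S1P axis that CD69 acts on was represented by 10 genes, of which 9 were tested. Of these, 5 rose and 3 fell in dsHMGB1, 4 rose and 3 fell in LPS, and 3 rose and 3 fell in LPS/IFNγ. With PBS replicate 3 left out, 4 rose and 3 fell in dsHMGB1, 4 rose and 4 fell in LPS, and 3 rose and 4 fell in LPS/IFNγ. *S1pr1*, the receptor that CD69 removes from the surface of lymphocytes, fell in dsHMGB1 (-0.77, edgeR adjusted p = 0.00477) and was at -0.40 and -0.19 in LPS and LPS/IFNγ (edgeR adjusted p = 0.0507 and 0.333). *S1pr4* and *S1pr3*, other S1P receptors, rose by 3.50, 3.43 and 3.12 and by 1.95, 2.67 and 2.83. *Sphk1*, a kinase that makes S1P, rose by 0.53, 3.65 and 4.97. *Klf2*, the transcription factor that drives *S1pr1* in lymphocytes, fell in all 3 groups (-0.93, -0.79 and -3.54).

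Among 9 lectin genes related to *Cd69*, 3 were tested. *Clec2d*, the most abundant, was at 0.67, 0.77 and 0.62 over PBS and did not pass the test. *Klrb1f* rose in LPS/IFNγ by 4.20 (SE 1.24, edgeR adjusted p = 0.00623), and *Clec2i* fell in all 3 groups (-1.72, -3.96 and -2.11). In dsHMGB1, LPS and LPS/IFNγ, 0 rose and 1 fell, 0 rose and 1 fell, and 1 rose and 1 fell, against 1 rose and 1 fell, 1 rose and 1 fell, and 2 rose and 1 fell without PBS replicate 3.

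*Cd207* (chr6:83671215-83677857, minus strand) rose over PBS in LPS/IFNγ. Its LPS/IFNγ libraries held 373, 381 and 403 reads. PBS libraries had 34, 4 and 16 and frHMGB1 libraries 12, 5 and 9. There were 9, 6 and 12 reads in dsHMGB1 and 10, 6 and 4 in LPS. The LPS/IFNγ libraries lay above all others, and the remaining groups overlapped.

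The rise of *Cd207* in LPS/IFNγ was 4.78 over PBS (SE 0.52, edgeR adjusted p = 3.04e-06) and 5.38 over LPS (SE 0.58, edgeR adjusted p = 1.29e-05). Against LPS/IFNγ, dsHMGB1 was lower, with a log2 fold change of -5.71 (SE 0.55, edgeR adjusted p = 3.82e-06). Between LPS/IFNγ and LPS, 25.7% of all tested genes were called, and 2 of *Ikzf1*, *Ikzf2* and *Cd207*. Between dsHMGB1 and LPS/IFNγ, 33.2% were called, and 3 of these 3 genes. Between dsHMGB1 and LPS, 26.4% were called, and 0 of the 3 in edgeR with all libraries (0 at an unadjusted p under 0.05 and 0 with DESeq2), with *Cd207* at -0.33 (edgeR adjusted p = 0.812). The values of *Cd207* over PBS were -0.62, -0.93 and -0.60 in frHMGB1, dsHMGB1 and LPS (edgeR adjusted p = 0.677, 0.210 and 0.382). Without PBS replicate 2, the library with 4 reads, *Cd207* was called lower in dsHMGB1 (-1.45, edgeR adjusted p = 0.00714) and LPS (-1.17, edgeR adjusted p = 0.0217).

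Of 10 genes known around Langerin, 8 were tested, and 3 rose and 1 fell in dsHMGB1, 2 rose and 1 fell in LPS, and 4 rose and 0 fell in LPS/IFNγ. When PBS replicate 3 was left out, 3 rose and 3 fell in dsHMGB1, 2 rose and 2 fell in LPS, and 4 rose and 2 fell in LPS/IFNγ. *Irf8*, a transcription factor of dendritic cells and macrophages, rose by 0.96, 2.88 and 4.95 (LPS/IFNγ SE 0.06, edgeR adjusted p = 7.23e-14). *Id2* and *Tgfb1*, which Langerhans cells need, rose in LPS/IFNγ by 0.77 and 0.35.

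The summed level of 10 markers of dendritic and Langerhans cells was highest in LPS/IFNγ, as was *Cd207*, while the single markers went in both directions. The sum was 53.4 to 56.3 CPM in LPS/IFNγ, 26.5 to 30.8 in LPS, 12.5 to 17.8 in dsHMGB1, 21.8 to 24.7 in frHMGB1 and 19.6 to 39.8 in PBS. Of 6 tested markers, 3 rose and 3 fell in LPS/IFNγ, with *Zbtb46* at 5.08, *Batf3* at 2.38, *Xcr1* at 2.59, *Clec9a* at -0.81 and *Cd24a* at -0.93. *Flt3* had 4 reads in LPS, 2 in LPS/IFNγ and 0 in the other groups, and *Epcam* had 5 in LPS/IFNγ. The part of such cells in the *Cd207* result was not tested.

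The lymphocyte marker lists moved in part with the same stimulations. The 22 T cell markers summed to 205 to 217 CPM in LPS/IFNγ, 59.3 to 60.9 in LPS, 57.8 to 61.6 in dsHMGB1, 199.6 to 209 in frHMGB1 and 84.2 to 277 in PBS. Most of the sum in LPS/IFNγ was *Lck*, the T cell Src kinase, with a mean of 175 CPM, and most of the sum in PBS was *Cd28*, with a mean of 152 CPM. *Lck* rose by 5.10, 7.26 and 9.84 in dsHMGB1, LPS and LPS/IFNγ (LPS/IFNγ SE 0.22, edgeR adjusted p = 1.77e-13), and *Cd28* fell in each of them (-2.53 in dsHMGB1).

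*Cd247*, the CD3 zeta chain, had 0 reads in PBS and was at least 94.7-fold higher in dsHMGB1, 146-fold in LPS and 211-fold in LPS/IFNγ. *Klrk1*, the NKG2D receptor of NK and T cells, also had 0 reads in PBS and was at least 230.2-fold, 519-fold and 834-fold higher (edgeR adjusted p = 8.69e-09, 1.55e-09 and 7.45e-10). *Zap70*, the kinase that binds CD3 zeta, fell (-2.85, -2.48 and -1.66). The summed level of the 10 NK cell markers was 8.49 to 8.90 CPM in LPS/IFNγ, 4.54 to 6.32 in LPS, 2.89 to 3.58 in dsHMGB1, 0.122 to 0.286 in frHMGB1 and 0.122 to 0.402 in PBS, and *Klrk1* was 8.57 CPM of it in LPS/IFNγ. The 10 B cell markers summed to 31.3 to 35.6 CPM in LPS/IFNγ and 69.0 to 81.6 in PBS, and 1 of them, *Blk*, was at 0 in all libraries. Among the T and NK cell markers, *Cd3d*, *Cd3e*, *Cd3g*, *Trbc1* and *Ncr1* were at 0 in all libraries, while *Trac*, *Trbc2* and *Cd8b1* had 4, 6 and 2 reads over all of them. *Cd4* had 19160 reads and *Lat* 9385, each in all 15 libraries, and *Klrb1c* had 156, in 14 of them.

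**Figure D4:**
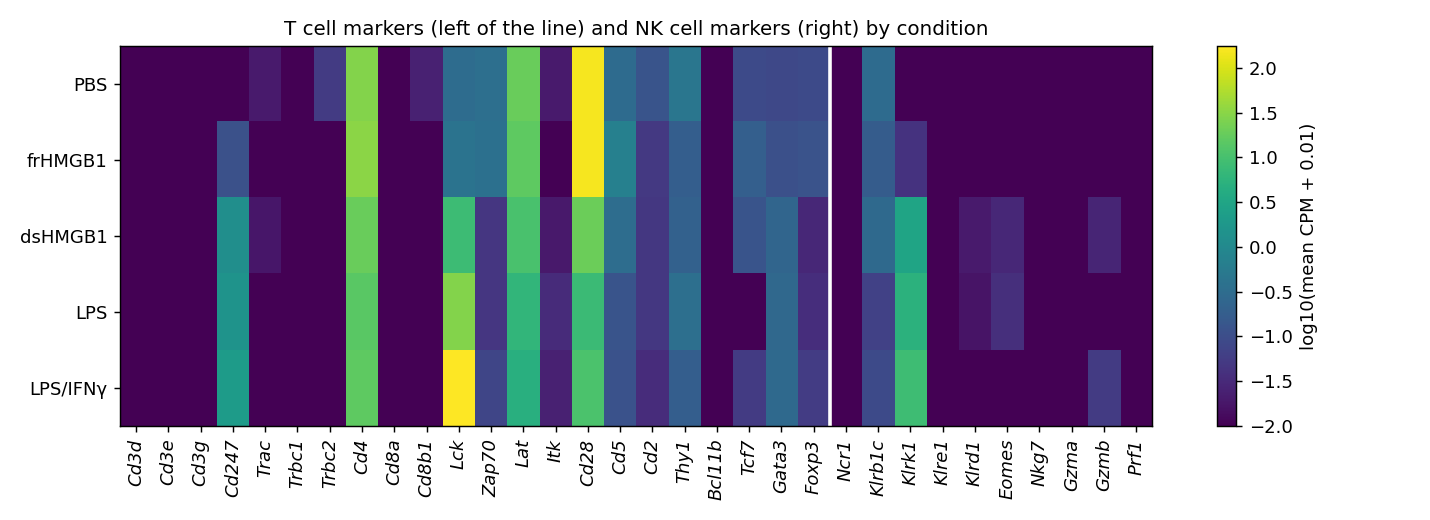
Log10 of mean CPM + 0.01 in each of the 5 conditions (rows, 3 libraries each) for 22 T cell markers and 10 NK cell markers (columns). *Cd3d*, *Cd3e*, *Cd3g* and *Ncr1* are at 0 in every condition, while *Lck* reaches a mean of 175 CPM and *Klrk1* 8.57 CPM in LPS/IFNγ.

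The genes most like each of the 9 across conditions were found by the root mean square difference over the 5 condition means, on log2(mean normalized count + 1) centred per gene, among 11695 protein-coding genes with a mean of at least 20. For *Ikzf1*, they were *Sod2* (0.09), the mitochondrial superoxide dismutase, *Zup1* (0.11) and *Spred1* (0.12). *Sod2* had mean normalized counts of 3616 with PBS, 48546 with dsHMGB1, 70339 with LPS and 74659 with LPS/IFNγ. For *Ikzf2*, the nearest were *Treml2* (0.14), *Taf4b* (0.18) and *Chst11* (0.20).

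For *Cd69*, the nearest genes were *Cxcl10* (0.42), an interferon-induced chemokine gene, *Acod1* (0.44), whose enzyme makes itaconate, and *Gbp5* (0.49). For *Rasgrp1*, they were *Ifit3b* (0.48), *Cxcl3* (0.55) and *Ifit3* (0.67), with *Cxcl3* at 2323 normalized counts in LPS and 152 in LPS/IFNγ. *Ifit3* and *Ifit3b* are near-identical copies whose reads the counting could split, so their values are uncertain.

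The genes near *Prkcq*, *Cd207*, *Tbx21* and *Ikzf4* are listed as a description. *Prkcq*, *Tbx21* and *Ikzf4* were picked for separating the stimulations, so nothing is read from names that recur. Means near 0, such as those of *Tbx21* in dsHMGB1 and LPS, also weigh on these distances. *Prkcq* was nearest to *Sfrp1* (0.27), a Wnt antagonist, then *Coch* (0.50) and *Phf21b* (0.58). *Cd207* was nearest to *Sfrp1* (0.47), *Prkcq* (0.64) and *Crem* (0.68). *Tbx21* was nearest to *Nanos1* (0.66), *Cd207* (0.81) and *Lrrtm2* (0.97), and *Ikzf4* to *Nts* (0.77), *Ildr1* (0.90) and *Rgcc* (0.91). With 11 reads, the likeness of *Ikzf3* was not read.

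Overlapping genes could add reads to *Ikzf1*, since the sources used here give no strand setting for the counting. *Gm12000* and *Gm11999*, on the opposite strand of *Ikzf1*, had 56 and 13 reads over the dsHMGB1 libraries, 41 and 12 in LPS, and 63 and 48 in LPS/IFNγ, against 123691, 96078 and 167956 reads of *Ikzf1*. The genes that overlap *Ikzf2*, *Ikzf3*, *Ikzf4* and *Prkcq* had 1 read in all.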

How the data were processed

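RNA was sequenced from 15 BMDM samples, 3 per condition. According to the labels and the methods of the study, the authors made stranded mRNA libraries, sequenced paired ends, processed them with CASAVA, STAR and DESeq2 and used GRCm38. The table deposited by the authors holds raw read counts for 51763 Ensembl genes, with 0 columns that have no sample. Which counting program and annotation made it was not given in the sources used here. Positions come from GENCODE M21, which held 51661 of the genes.

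Genes were filtered with filterByExpr (16919 kept) and tested in edgeR 4.0.16 (R 4.3.3) with its quasi-likelihood test (TMM, all 15 libraries in one fit, no covariates). A gene was called at a Benjamini-Hochberg adjusted p under 0.05 over all genes tested, in 7 comparisons. "Rose", "fell" and "called" refer to this test. Normalized counts, unshrunken log2 fold changes and SEs are from DESeq2 1.42.0. Values given as 3 numbers in a row are for dsHMGB1, LPS and LPS/IFNγ against PBS. The test was also run on simulated counts with the same spread for all genes, changes in LPS/IFNγ alone and no library like PBS replicate 3. That setting differs from these data, so nothing about the results here is read from it. CPM and RPKM were computed from raw counts and library totals, with exon lengths from GENCODE. Ratios are pooled counts over pooled size factors, with exact 95% intervals (SciPy 1.17.1) that, like the limit of 3 counts for 0 reads, cover counting error only, since PCR copies are not independent molecules.

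The genes and the 10 pathway and 5 marker lists were chosen with earlier results of these data known. The text names the 9 genes, list genes (first up to 4 with the largest change among called genes), and the 3 genes most like each. Some list genes are counted but not reported by name here. Alternatives were DESeq2's Wald test, RLE size factors, no filter, a filter of 1 CPM in 3 libraries, protein-coding genes alone, only the 2 conditions compared, a block for the replicate number, and leave-one-out of all 15 libraries.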

Additional observations from a re-analysis of the deposited data

How the results depend on the processing

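Effect sizes here are edgeR log2 fold changes, except where DESeq2 is named. The rises of *Ikzf1* over PBS in dsHMGB1, LPS and LPS/IFNγ and the LPS/IFNγ differences of *Ikzf2* and *Cd207* from PBS, dsHMGB1 and LPS kept their direction and their call under each alternative and with each library left out. The call of *Ikzf1* as lower in dsHMGB1 than in LPS/IFNγ was lost with the replicate block (-0.73, adjusted p = 0.0521), and no other call on *Ikzf1*, *Ikzf2* or *Cd207* changed with it. Deviations of same-numbered samples from their group means correlated at -0.386 to 0.375, with 1 of 30 pairs over 0.1. For pairs with different numbers they correlated at -0.441 to 0.460, with 4 of 60 pairs over 0.1. No pairing by number was seen, but deviations from a mean of 3 libraries are not independent, so these values cannot settle it. With single libraries left out, that *Ikzf1* difference ranged from -0.80 to -0.63. *Ikzf1* ranged from -0.0748 to 0.51 in frHMGB1 against PBS, -0.45 to -0.34 in dsHMGB1 against LPS and 0.27 to 0.35 in LPS/IFNγ against LPS. With only the 2 conditions compared, *Ikzf1* was called in the last 2 of these (-0.39 and 0.31), and *Ikzf2* was not called in dsHMGB1 (0.87) or LPS (0.96) against PBS. *Ikzf2* ranged from 0.72 to 1.07 in dsHMGB1 and 0.44 to 1.11 in LPS against PBS. Between dsHMGB1 and LPS it was at 0.0339, -0.0196 with DESeq2, -0.0186 with RLE size factors and -0.23 to 0.44 with a library left out. *Cd207* ranged from -1.12 to 0.0329 in frHMGB1, -1.45 to -0.30 in dsHMGB1 and -1.17 to -0.0150 in LPS against PBS, and -0.55 to 0.0290 between dsHMGB1 and LPS. The cause was not tested.

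Of the 121 genes of the 10 pathway lists, 1 was called higher in frHMGB1 than in PBS, against 5 with DESeq2, 0 with no filter, 0 with protein-coding genes alone, 0 with only the 2 conditions compared, and 1 to 11 with a library left out. In edgeR 0 were called lower, and 0 to 3 with a library left out. In dsHMGB1 against PBS, 38 rose (22 with only the 2 conditions compared, 31 to 43 with a library left out) and 19 fell (16 to 29). Between dsHMGB1 and LPS, 16 were higher (6 to 23) and 15 lower (25 with only the 2 conditions compared, 10 to 29). In dsHMGB1 against LPS/IFNγ, 23 were higher (19 to 39). In LPS/IFNγ against LPS, 17 were higher (34 with only the 2 conditions compared, 11 to 25) and 10 lower (27 with only the 2 conditions compared, 9 to 27). Calls over all tested genes also increased without PBS replicate 3. In frHMGB1 against PBS they went from 222 higher and 963 lower to 1459 and 1576. Between dsHMGB1 and LPS they went from 2670 higher and 1791 lower to 4433 and 4032. For the 5 genes described without a test, shifts were taken for group means of at least 10 normalized counts, and smaller means are not included. TMM scaling moved these levels to between 0.975 and 1.03 times their value. Leaving out a library moved them more. The range was 0.595 to 0.971 times without PBS replicate 2, 0.967 to 1.21 without PBS replicate 1 and 0.760 to 1.10 without LPS/IFNγ replicate 1.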
